A study of Mus musculus with 6 samples.

Results

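The transcription factor genes described here belong to 4 families and number 9. They are Grhl1, Grhl2 and Grhl3 (grainyhead-like), Ovol1 and Ovol2 (OVO-like zinc finger), Zeb1 and Zeb2 (zinc finger E-box binding homeobox) and Snai1 and Snai2 (Snail and Slug), and they were followed as mouse embryonic stem cells left naive pluripotency. The 9 genes were chosen as activators or repressors of epithelial genes, by matching their symbols to the Ensembl identifiers of a table of 51826 genes, and each matched 1 row. The table held read counts for 6 RNA-seq libraries made from wild-type cells of the V6.5 line, which grows as mouse embryonic stem cells. Epiblast-like cells (EpiLC, 3 libraries) had been without leukaemia inhibitory factor (LIF) and without the 2i inhibitors for 3 days. Embryonic stem cells (ESC, 3 libraries) were kept with LIF and with 2i, the pair of inhibitors of GSK3 and MEK. The base medium of both states was Knockout DMEM to which 15% FBS had been added, and all libraries came from 1 cell line. Nothing in the labels says that the 3 libraries of a state came from separate cultures, so p-values measure the spread between these libraries, which may be technical.

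Grainyhead-like proteins bind DNA through a conserved domain and activate genes of cell junctions and of epithelial splicing. OVOL proteins repress Zeb1 and other mesenchymal genes, while ZEB and SNAI proteins bind E-boxes and repress E-cadherin and other epithelial genes. GRHL2 and ZEB1 are known to repress each other in epithelial and carcinoma cells. The post-implantation epiblast, which EpiLC model, is an epithelium, and the study asked about enhancers that depend on GRHL2 once the naive state has ended.

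Of the 9 genes, 6 held enough counts to pass the filter on low counts (10 counts in a library of median size, about 0.872 CPM, in at least 3 libraries). These were Grhl1, Grhl2, Grhl3, Ovol2, Zeb1 and Zeb2. Each of the 6 was called at an adjusted p under 0.05 (edgeR's quasi-likelihood test, Benjamini-Hochberg over all 14996 genes tested), 4 higher and 2 lower in EpiLC, against 64.6% of all genes tested, 32.0% higher and 32.6% lower. Their libraries did not overlap between the states, as was so for 70.2% of all genes tested (34.9% with EpiLC above and 35.3% with EpiLC below). Zeb2 passed the filter through its EpiLC libraries alone. Ovol1, Snai1 and Snai2 lay below the filter and were fitted without it, a fit in which 36.3% of 29494 genes were called. Levels are counts scaled to a common library total (CPM), with totals adjusted by the TMM method, and log2 fold changes are EpiLC minus ESC. In bulk RNA, fewer cells that express a gene and less RNA per cell cannot be told apart.

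Library totals ran from 9710410 to 11425054 counts in EpiLC and from 11499687 to 22879812 in ESC. A level of 3 counts, the limit that a count of 0 allows, was 0.257 to 0.301 CPM in EpiLC libraries and 0.135 to 0.261 CPM in ESC libraries, which covers counting error only. ESC replicate 3 stood apart from its group. Its chi-square over genes, divided by the degrees of freedom, was 25.7 and 26.1 against ESC replicates 1 and 2, while those differed from each other by 2.58 and the EpiLC pairs by 2.17 to 4.11. Values without it are given beside the results for the 9 genes, and for the other named genes where leaving it out changed a call or moved a called value by over 1.5 times. The states matched their labels in 8 of 8 naive markers, which fell (summed level 287 to 295 CPM in EpiLC and 3122 to 3343 CPM in ESC). They also matched in 7 of 7 formative markers, which rose (1554 to 1847 CPM in EpiLC and at most 291 CPM in ESC). The 4 core pluripotency markers did not move together, as 1 rose and 2 fell. Their sum, 1630 to 1663 CPM in EpiLC and 1545 to 1904 CPM in ESC, hides opposite changes. Lin28a rose (869 CPM in EpiLC and 272 CPM in ESC). Sox2 (37.0 CPM in EpiLC and 429 CPM in ESC) and Pou5f1 (495 CPM in EpiLC and 835 CPM in ESC) fell.

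**Figure D1:**
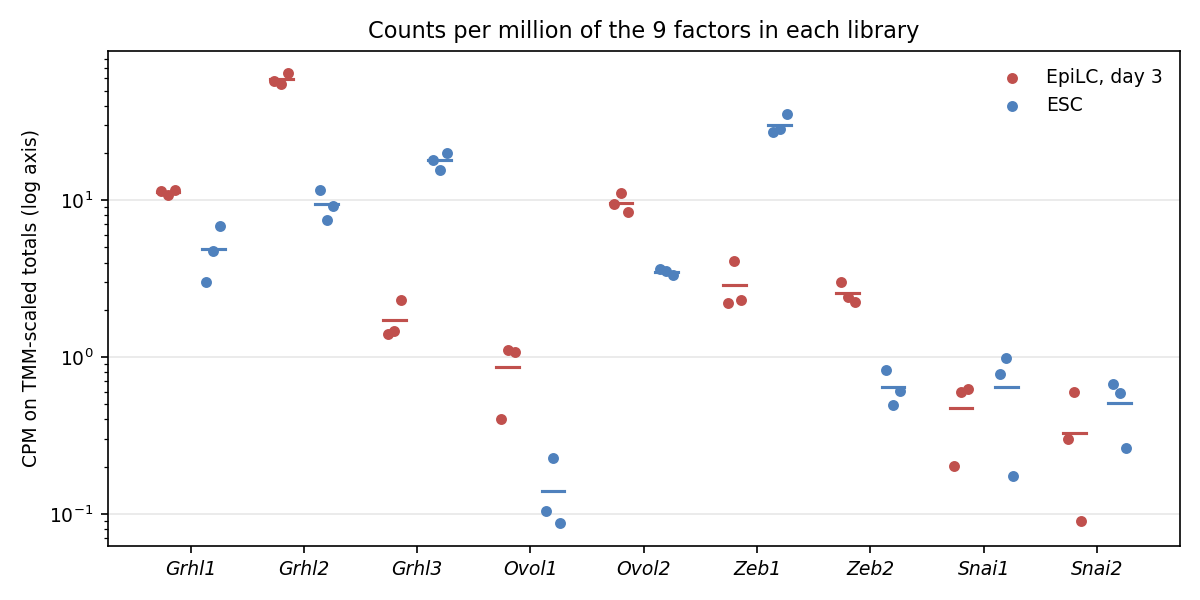
Level of each of the 9 genes in CPM on TMM-scaled totals (log axis), with EpiLC libraries left of ESC libraries for each gene, points for the 3 libraries and a line for their mean. Grhl2 stands between 55.3 and 64.5 CPM in EpiLC and between 7.43 and 11.6 CPM in ESC, Grhl3 and Zeb1 lie below their ESC points, and the points of Snai1 and Snai2 overlap.

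Within the grainyhead-like family, Grhl2 and Grhl1 rose in EpiLC and Grhl3 fell. Grhl2 (ENSMUSG00000022286, chromosome 15, 37233036 to 37363569, plus strand, GRCm38 as for all positions) stood at 57.9, 55.3 and 64.5 CPM in EpiLC replicates 1 to 3, against 11.6, 7.43 and 9.15 CPM in ESC replicates 1 to 3. Every EpiLC library lay far above every ESC library. The difference was 6.30-fold (log2 fold change 2.66, SE 0.16, 95% interval 2.29 to 3.02, edgeR adjusted p = 3.14e-06) and 2.64 on the log2 scale without ESC replicate 3. Among all genes tested, 8.30% were called higher by at least 4-fold, and 5.46% had a log2 fold change at least as high as that of Grhl2.

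Grhl1 (ENSMUSG00000020656, chromosome 12, 24572283 to 24617391, plus strand) is expressed in epidermis, where it takes part in desmosome gene expression. It held 11.4, 10.9 and 11.6 CPM in EpiLC, against 3.01, 4.73 and 6.79 CPM in ESC. The EpiLC libraries lay close together, whereas the ESC libraries spread over more than their own lowest value, with ESC replicate 3 the highest. The difference was 2.42-fold (log2 fold change 1.27, SE 0.25, edgeR adjusted p = 0.00220), 1.51 on the log2 scale without ESC replicate 3 and 1.0 without ESC replicate 1.

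Grhl3 (ENSMUSG00000037188, chromosome 4, 135541888 to 135573630, minus strand), a factor of neural tube closure and of the skin barrier, went the other way. It held 1.41, 1.45 and 2.32 CPM in EpiLC, from 14, 17 and 26 reads, against 18.1, 15.7 and 20.0 CPM in ESC, from 348, 348 and 230 reads. All ESC libraries lay above all EpiLC libraries. Grhl3 fell 10.2-fold (log2 fold change -3.35, SE 0.21, 95% interval -3.83 to -2.88, edgeR adjusted p = 3.68e-06), and by 3.29 on the log2 scale without ESC replicate 3. Among all genes tested, 5.69% were called lower by at least 4-fold, and 2.56% had a log2 fold change as low as that of Grhl3 or lower.

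Set per kilobase of exon, so that the 3 genes can be compared with each other, Grhl2 was the largest of the family in every EpiLC library and Grhl3 in every ESC library. Grhl2 made up 72.1% ± 0.24 of the family's reads per kilobase in EpiLC and 13.0% ± 2.69 in ESC (SD, n = 3 each). Grhl3 made up 6.42% ± 1.38 in EpiLC and 76.6% ± 0.77 in ESC, and Grhl1 21.5% ± 1.16 in EpiLC and 10.4% ± 3.41 in ESC. The summed level of the 3 genes was 9.29, 8.90 and 10.4 CPM per kb in EpiLC and 8.37, 7.34 and 9.47 CPM per kb in ESC, and the states overlapped. That overlap depended on the length used. With the longest transcript in place of all exons the sums were 14.8 to 17.2 CPM per kb in EpiLC and 8.49 to 11.0 CPM per kb in ESC, without overlap, while Grhl2 still held 75.5% of the family in EpiLC and 19.6% in ESC.

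**Figure D2:**
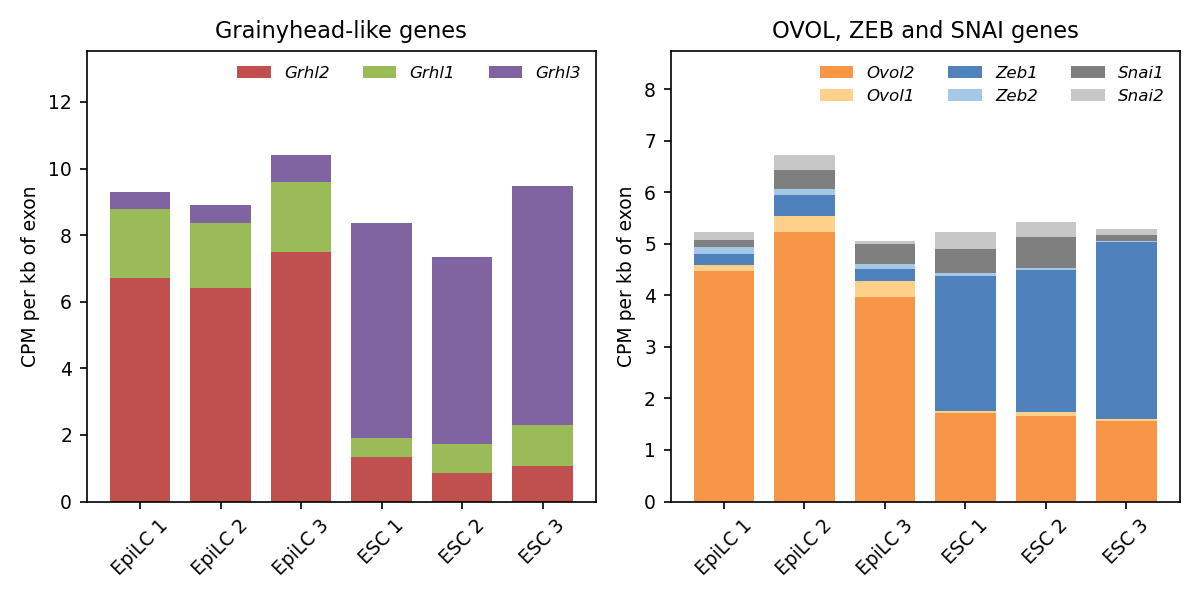
Stacked levels per library in CPM per kb of exon (all annotated exons merged), EpiLC replicates 1 to 3 on the left and ESC replicates 1 to 3 on the right, for the 3 grainyhead-like genes and for the other 6 genes. The grainyhead-like bars reach 8.90 to 10.4 in EpiLC and 7.34 to 9.47 in ESC but consist mostly of Grhl2 in EpiLC and of Grhl3 in ESC, and in the second panel Ovol2 fills the EpiLC bars where Zeb1 and Ovol2 share the ESC bars.

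RefSeq promoter windows (250 bases before to 50 after a start site, GRCm38.p6) were found for 5 of the 9 genes, in 9 windows. They were searched on both strands for the E-box of ZEB and SNAI (CACCTG), the grainyhead-like site (AACCGGTT) with its looser form (AACNNGTT, which includes the strict one), and the OVOL site (CCGTTA). Of 32851 windows of this length, 20.2% held at least 1 such E-box and 2.88% at least 2, 0.146% the grainyhead-like site, 4.20% its looser form and 2.76% the OVOL site. The Grhl3 window held 2 E-boxes, starting 19 bases before and 8 bases after the start site, and the Snai1 window held 1, starting 126 bases before it. The windows of Grhl1, Ovol2 and Zeb2 held none of the 4 motifs. The sequences below are those of the windows with an E-box (Grhl3 and Snai1) and, chosen because the genes rose, windows of Grhl1 and Ovol2 without one. The other Grhl1 window and the Zeb2 windows, also without one, are not shown. Whether any of the factors acts on these windows was not tested. The sequences read 5′ to 3′ on the gene's strand with the E-boxes in capitals, and a match is a string of letters and not a measured site.
Grhl3, chr4:135573583-135573882, minus strand: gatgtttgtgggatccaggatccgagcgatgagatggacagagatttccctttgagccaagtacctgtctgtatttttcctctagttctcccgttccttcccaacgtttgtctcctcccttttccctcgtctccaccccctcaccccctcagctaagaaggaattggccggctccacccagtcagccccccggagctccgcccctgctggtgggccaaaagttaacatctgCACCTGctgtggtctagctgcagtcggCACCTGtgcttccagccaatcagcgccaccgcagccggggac
Snai1, chr2:167537945-167538244, plus strand: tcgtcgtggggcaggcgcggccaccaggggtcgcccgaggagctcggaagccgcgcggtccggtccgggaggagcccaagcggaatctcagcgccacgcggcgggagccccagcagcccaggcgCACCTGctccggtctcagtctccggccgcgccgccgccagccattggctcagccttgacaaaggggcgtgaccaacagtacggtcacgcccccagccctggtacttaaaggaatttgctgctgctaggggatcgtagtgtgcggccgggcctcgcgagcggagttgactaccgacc
Grhl1, chr12:24572037-24572336, plus strand: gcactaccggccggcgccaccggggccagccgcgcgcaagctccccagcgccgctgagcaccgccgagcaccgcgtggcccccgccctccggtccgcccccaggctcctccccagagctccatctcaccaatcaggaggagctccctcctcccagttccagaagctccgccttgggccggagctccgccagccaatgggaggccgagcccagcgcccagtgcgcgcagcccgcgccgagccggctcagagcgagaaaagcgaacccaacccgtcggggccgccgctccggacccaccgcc
Ovol2, chr2:144331313-144331612, minus strand: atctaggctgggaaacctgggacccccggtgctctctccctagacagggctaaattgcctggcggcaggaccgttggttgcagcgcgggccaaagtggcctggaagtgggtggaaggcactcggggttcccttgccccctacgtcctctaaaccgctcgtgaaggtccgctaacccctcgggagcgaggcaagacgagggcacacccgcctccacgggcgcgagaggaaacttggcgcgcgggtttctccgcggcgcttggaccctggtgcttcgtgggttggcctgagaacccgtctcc

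Both OVOL genes were higher in EpiLC. Ovol2 (ENSMUSG00000037279, chromosome 2, 144305175 to 144332146, minus strand), a repressor that holds epithelial identity, stood at 9.44, 11.0 and 8.39 CPM in EpiLC, against 3.63, 3.51 and 3.31 CPM in ESC. The lowest EpiLC library lay above the highest ESC library, and the ESC libraries were nearly equal. The rise was 2.74-fold (log2 fold change 1.46, SE 0.16, edgeR adjusted p = 8.26e-05), and 1.42 on the log2 scale without ESC replicate 3.

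Ovol1 (ENSMUSG00000024922, chromosome 19, 5549136 to 5560646, minus strand), its close relative in epidermis and germ cells, was scarcely detected. It had 4, 13 and 12 reads in EpiLC (0.40, 1.11 and 1.07 CPM), against 2, 5 and 1 reads in ESC (0.10, 0.23 and 0.087 CPM). No ESC library reached an EpiLC library, although the lowest EpiLC value rests on 4 reads. Without the filter on low counts the log2 fold change was 2.40 (SE 0.57, edgeR adjusted p = 0.00401), 2.23 without ESC replicate 3 and 2.99 without ESC replicate 2. Reads of the overlapping pseudogene Gm31166 on the opposite strand, which shares 690 exon bases with Ovol1, numbered 14 in EpiLC and 19 in ESC, so the count of Ovol1 is uncertain. Ovol2 made up 94.9% ± 2.39 of the OVOL reads per kilobase in EpiLC and 97.7% ± 1.22 in ESC.

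The ZEB genes moved in opposite directions. Zeb1 (ENSMUSG00000024238, chromosome 18, 5591860 to 5775467, plus strand), a repressor of E-cadherin and of the miR-200 genes, had 2.21, 4.11 and 2.32 CPM in EpiLC, against 27.0, 28.4 and 35.3 CPM in ESC. All EpiLC libraries lay far below all ESC libraries, and EpiLC replicate 2 was the highest of its group. It fell 10.3-fold (log2 fold change -3.37, SE 0.22, 95% interval -3.87 to -2.86, edgeR adjusted p = 4.99e-06), by 3.26 on the log2 scale without ESC replicate 3 and by 3.73 without EpiLC replicate 2. Among all genes tested, 2.55% had a log2 fold change as low or lower.

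Zeb2 (ENSMUSG00000026872, chromosome 2, 44983632 to 45117395, minus strand), the paralogue known for its part in neural and neural crest development, rose at a low level. It had 3.01, 2.39 and 2.23 CPM in EpiLC, from 30, 28 and 25 reads, against 0.83, 0.50 and 0.61 CPM in ESC, from 16, 11 and 7 reads. The states did not overlap. The difference was 3.90-fold (log2 fold change 1.96, SE 0.28, edgeR adjusted p = 0.000371), and 1.93 on the log2 scale without ESC replicate 3. Zeb2 made up 32.5% ± 9.09 of the ZEB reads per kilobase in EpiLC and 1.11% ± 0.39 in ESC, and the summed ZEB level was 0.41 ± 0.098 CPM per kb in EpiLC and 2.98 ± 0.43 CPM per kb in ESC (SD, n = 3 each). Some markers of cell types in which Zeb2 is known to be expressed rose with it. For comparison, 32.0% of all genes tested were called higher and 32.6% lower. Of 6 neural markers tested of 7, 5 rose, with a sum of 430.2 to 468 CPM in EpiLC and 95.9 to 135 CPM in ESC, of which Nes made up 352 CPM in EpiLC and 43.2 CPM in ESC. Of 4 neural crest markers tested of 7, 2 rose and 1 fell, with a sum of 39.1 to 46.3 CPM in EpiLC and 17.7 to 26.0 CPM in ESC. Most of that difference lay in Ets1 (27.0 CPM in EpiLC and 2.52 CPM in ESC), while Foxd3 was not called (13.8 CPM in EpiLC and 16.9 CPM in ESC) and Tfap2a fell. Nes, Ets1 and Foxd3 are named here after their values were seen. Of 2 mesoderm markers tested of 8, both rose, with a sum of 9.07 to 13.8 CPM in EpiLC and 2.87 to 4.01 CPM in ESC. Their part in the level of Zeb2 was not tested.

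The SNAI genes were near the limit of detection in both states. Snai1 (ENSMUSG00000042821, chromosome 2, 167538195 to 167542814, plus strand), the Snail repressor of gastrulation, had 2, 7 and 7 reads in EpiLC (0.20, 0.60 and 0.63 CPM), against 15, 22 and 2 reads in ESC (0.78, 0.99 and 0.17 CPM). ESC replicate 3 held the lowest value of all and the states overlapped. Without the filter the log2 fold change was -0.65 (95% interval -1.89 to 0.59, edgeR adjusted p = 0.399), and -0.96 without ESC replicate 3 (adjusted p = 0.0749, within a range of 0.0749 to 0.809 over the alternatives). Snai2 (ENSMUSG00000022676, chromosome 16, 14705852 to 14709385, plus strand), or Slug, a repressor of migrating neural crest cells, had 3, 7 and 1 reads in EpiLC (0.30, 0.60 and 0.089 CPM), against 13, 13 and 3 reads in ESC (0.67, 0.59 and 0.26 CPM). Its states overlapped as well. The log2 fold change was -0.77 (95% interval -2.05 to 0.52, edgeR adjusted p = 0.361), and -0.99 without ESC replicate 3 (adjusted p = 0.149, within a range of 0.149 to 0.720). Neither gene passed the test, and intervals this wide hold falls of over 2-fold as well as no change. Leaving out EpiLC replicate 2 gave -1.56 for Snai2, and leaving out EpiLC replicate 3 gave -0.28.

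**Figure D3:**
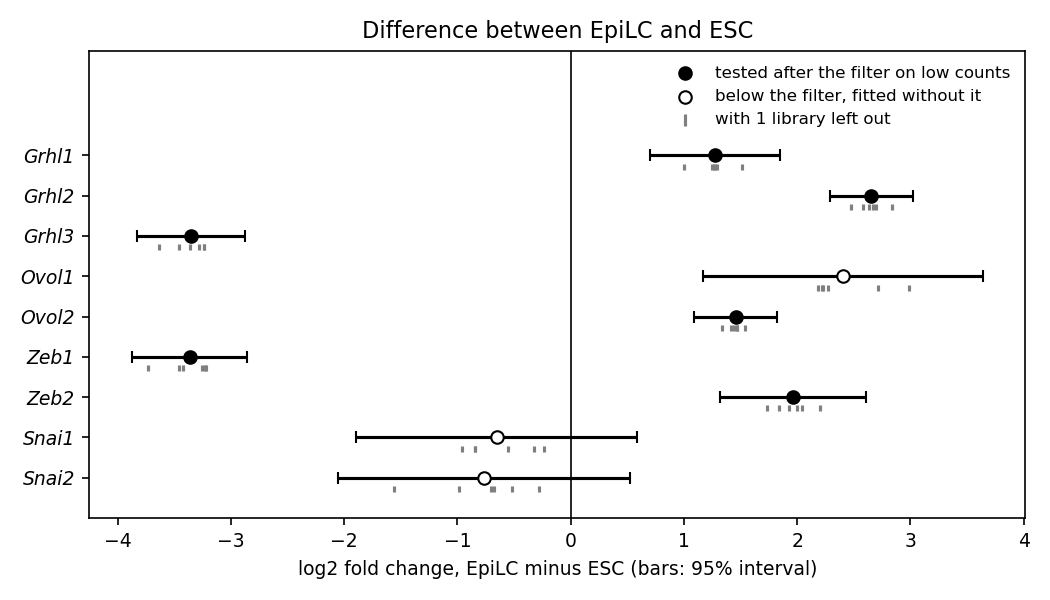
Log2 fold change of each gene, EpiLC minus ESC, with its 95% interval (bars), filled points for the 6 genes that passed the filter on low counts, open points for the 3 genes fitted without it, and grey ticks for the values with 1 library left out. The intervals of Grhl3 and Zeb1 lie wholly below 0, those of Snai1 and Snai2 span 0, and the other 5 lie wholly above 0.

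Ordered by CPM per kb of exon, EpiLC expressed Grhl2 most (6.87 ± 0.55), then Ovol2 (4.55 ± 0.63), Grhl1 (2.04 ± 0.071) and Grhl3 (0.62 ± 0.18), and none of these 4 overlapped the next gene in its libraries. Below them Snai1, Zeb1, Ovol1, Snai2 and Zeb2 lay between 0.29 and 0.13 CPM per kb, and each overlapped the next in its libraries. In ESC the order began with Grhl3 (6.43 ± 0.78), Zeb1 (2.95 ± 0.43) and Ovol2 (1.65 ± 0.077), which did not overlap. Grhl2 (1.09 ± 0.24) and Grhl1 (0.87 ± 0.34) overlapped each other, Snai1 and Snai2 followed, and Ovol1 and Zeb2 were last at 0.040 and 0.032 CPM per kb. With the longest transcript as the length, Grhl3 and Zeb1 overlapped in EpiLC (0.62 and 0.50 CPM per kb) and in ESC (6.43 and 5.21 CPM per kb). Ovol2 and Grhl2 then also overlapped in ESC (2.25 and 1.90 CPM per kb), whereas Grhl1 and Snai1 no longer did (1.40 and 0.40 CPM per kb).

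Ratios within a library do not depend on the scaling of totals. The ratio of Grhl2 to Zeb1 in reads per kilobase was 31.3, 16.0 and 33.1 in EpiLC, against 0.51, 0.31 and 0.31 in ESC. Grhl2 exceeded Zeb1 in each EpiLC library and Zeb1 exceeded Grhl2 in each ESC library. The ratio of Ovol2 to Zeb1 was 20.8, 13.1 and 17.6 in EpiLC and 0.65, 0.60 and 0.46 in ESC, with the lowest EpiLC value of both ratios in replicate 2, where Zeb1 was highest. Both ratios are built from genes described above and were not tested.

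The annotation places antisense genes over several of these loci, and the library kit kept strand, while the strand setting of the counting is not given in the sources used here. Gm16136 (ENSMUSG00000089804, chromosome 15, 37231793 to 37233309, minus strand) overlaps the start of Grhl2 head to head and shares 169 exon bases with it. It had 20, 19 and 23 reads in EpiLC, against 0, 1 and 0 reads in ESC. The ratio per scaled total was 99.9 (95% interval 17.3 to 4009, exact conditional, counting error only), and the single ESC read lay in replicate 2. The gene was called higher in EpiLC (edgeR adjusted p = 8.57e-06) and was singled out after its values were seen. Whether reads of Grhl2 were counted for it was not tested. Zeb2os, which lies opposite Zeb2 and shares 653 exon bases with it, had 1 read in EpiLC and 0 in ESC, and 1700108N11Rik opposite Ovol2 likewise had 1 read in EpiLC and 0 in ESC.

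The genes whose profile over the 6 libraries came closest to that of Grhl2, by the root mean square difference of centred log2(CPM + 0.5) among 10975 genes, were Spin2c (0.077), Nsg1 (0.078), Fbxo32 (0.092), Zfp467 (0.097) and Trim21 (0.141). Spin2c averaged 13.3 ± 1.64 CPM in EpiLC and 1.75 ± 0.37 CPM in ESC. The closest to Zeb1 were Nupr1 (0.092), Rlbp1 (0.138), Itgal (0.149), Triml2 (0.154) and Nfatc2ip (0.170), and Nupr1 averaged 3.72 ± 1.31 CPM in EpiLC and 42.3 ± 9.07 CPM in ESC (SD, n = 3 each). Candidates were tested genes above a set level in the higher group, without the 9 genes and without gene models or clone names. The added 0.5 narrows differences at low levels, so a close profile need not mean an equal fold change. Itgal (0.39 CPM in EpiLC and 8.77 CPM in ESC) had a log2 fold change of -4.41, against -3.37 for Zeb1. These are descriptions of likeness over libraries that share 2 states.

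Relatives of the 4 families outside the 9 genes went in both directions. Of 7 relatives, 4 passed the filter, of which 2 were higher and 2 lower, with a median log2 fold change of -0.12 against 0.01 over all genes tested. The shares called over all genes tested also divided evenly, at 32.0% higher and 32.6% lower. Snai3, the third Snail gene, had 149, 177 and 185 reads in EpiLC (15.5 ± 0.85 CPM), against 35, 44 and 30 reads in ESC (2.14 ± 0.42 CPM). Every EpiLC library lay above every ESC library (log2 fold change 2.90, SE 0.16, edgeR adjusted p = 2.11e-06). Tfcp2l1, the grainyhead-related factor of the naive network, had 13.2 ± 1.61 CPM in EpiLC and 1076 ± 204 CPM in ESC (log2 fold change -6.35). Its relative Tfcp2 fell by 0.40 on the log2 scale. Ubp1, of the same branch, had 151 ± 4.72 CPM in EpiLC and 134 ± 2.80 CPM in ESC (log2 fold change 0.17, adjusted p = 0.0301), a call that was lost without any 1 of EpiLC replicates 1 to 3 or of ESC replicates 1 and 2 (adjusted p = 0.0626 to 0.108), so that 1 relative was then higher. Ovol3 was at 0 in each library, and the Scratch genes Scrt1 and Scrt2 had 6 and 4 reads in EpiLC and 1 and 4 in ESC.

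Of 15 other inducers of the epithelial-mesenchymal transition, 10 passed the filter, of which 7 were higher and 2 lower (median log2 fold change 0.77), against 32.0% higher and 32.6% lower among all genes tested. Foxc1 averaged 5.59 ± 1.56 CPM in EpiLC and 0.44 ± 0.15 CPM in ESC (log2 fold change 3.70), Sox4 76.5 ± 2.60 CPM in EpiLC and 11.6 ± 5.23 CPM in ESC (2.67), and Twist1 10.9 ± 0.58 CPM in EpiLC and 2.80 ± 0.75 CPM in ESC (2.02). Klf8, a repressor of E-cadherin, fell by 2.06 on the log2 scale. The second to fall, Gsc, named after its values were seen, lost its call without EpiLC replicate 2 (log2 fold change -1.70, adjusted p = 0.050), which left 1 lower. The E protein gene Tcf3 (137 CPM in EpiLC and 149 CPM in ESC) was not called, except without ESC replicate 3 (adjusted p = 0.0110). Some markers of fibroblasts were higher in EpiLC, as were Zeb2 and most tested genes of this group. The sum of 12 such markers was 276 to 323 CPM in EpiLC and 14.5 to 19.1 CPM in ESC, of which Tagln, a smooth muscle and fibroblast cytoskeletal gene, made up 275 CPM in EpiLC and 2.95 CPM in ESC. Of the 8 tested, 5 were higher and 1 lower, while Thy1 and Pdgfra were not called. The 1 that fell was Pdgfrb (1.82 CPM in EpiLC and 7.61 CPM in ESC), named after its values were seen. Dcn was at 0 in each ESC library, and Lum and Postn had at most 1 read in any library. Twist2, below the filter, is both among these markers and among the inducers above. The part of fibroblasts in the result was not tested.

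Of 12 other epithelial transcription factors, 6 passed the filter, of which 1 was higher and 4 lower (median log2 fold change -2.06), against 32.0% higher and 32.6% lower among all genes tested. Tfap2c averaged 3.50 ± 0.22 CPM in EpiLC and 35.8 ± 1.06 CPM in ESC (log2 fold change -3.35), Elf3 10.1 ± 0.40 CPM in EpiLC and 73.1 ± 9.47 CPM in ESC (-2.85), and Klf5 6.79 ± 1.28 CPM in EpiLC and 30.4 ± 7.63 CPM in ESC (-2.18). Tfap2a fell by 1.95 on the log2 scale. Gata3 (1.40 CPM in EpiLC and 1.14 CPM in ESC) was not called, but was without ESC replicate 3 (log2 fold change 1.28, adjusted p = 0.0139), which made 2 higher. The markers of trophectoderm include Tfap2c, Elf5, Gata3 and Cdx2 of this list, so their sum is not separate from it. It was 23.7 to 29.3 CPM in EpiLC and 57.1 to 72.6 CPM in ESC (of 5 tested of 8, 1 rose and 2 fell). Tfap2c alone made up 3.50 CPM of it in EpiLC and 35.8 CPM in ESC. Elf5 was at 0 in each EpiLC library and Cdx2 at no more than 2 reads there. Markers of surface ectoderm, where all 3 grainyhead-like genes are known to be expressed, summed to 2.31 to 3.51 CPM in EpiLC and 2.61 to 3.57 CPM in ESC (of 2 tested of 7, 1 rose and 1 fell). The 1 that fell, Tfap2a, and Trp63 are also in this list of epithelial factors, so that sum is not separate from it either. Markers of primitive endoderm summed to 27.0 to 29.6 CPM in EpiLC and 122 to 157 CPM in ESC (of 6 tested of 9, 2 rose and 3 fell). Most of the ESC sum was Lama1 (10.3 CPM in EpiLC and 123 CPM in ESC), which fell with Sox17 and Hnf4a. Dab2 (9.20 to 11.0 CPM in EpiLC and 0.104 to 1.31 CPM in ESC) and Gata4 (4.37 to 5.22 CPM in EpiLC and 1.45 to 4.36 CPM in ESC) rose. In both, ESC replicate 3 was the highest ESC library. These endoderm genes are named after their values were seen. The part of these cell types in the levels of the factors was not tested.

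Genes that grainyhead-like factors are known to activate mostly rose. All 20 passed the filter, and 18 were higher (14 by at least 2-fold) and 2 lower, with a median log2 fold change of 1.96. Of all genes tested, 32.0% were called higher and 32.6% lower, and 17.0% were called higher and 12.4% lower by at least 2-fold. The count of 18 was 16 or 17 without any 1 of EpiLC replicates 1 to 3 or of ESC replicates 1 and 2. Cldn4 lost its call without any 1 of EpiLC replicates 1 to 3 or ESC replicate 2 (edgeR adjusted p = 0.0893 to 0.133). St14 lost its call without EpiLC replicate 1, ESC replicate 1 or ESC replicate 2 (edgeR adjusted p = 0.0522 to 0.0555). Esrp1, which encodes an epithelial splicing regulator, averaged 134 ± 4.16 CPM in EpiLC and 3.97 ± 1.13 CPM in ESC (log2 fold change 5.03). The claudin gene Cldn7 rose by 3.66 on the log2 scale. Prom2, a gene of membrane protrusions, had 156 reads in EpiLC against 3 in ESC (ratio 83.8, 95% interval 28.2 to 411, exact conditional), and the fitted log2 fold change was 6.18. Leaving out ESC replicate 1 gave 5.57, and leaving out ESC replicate 3 gave 7.18. Spint1 and Dsg2, singled out once their values were known, were the 2 that fell, Spint1 (96.8 CPM in EpiLC and 166 CPM in ESC), a serine protease inhibitor gene, and Dsg2 (56.5 CPM in EpiLC and 89.5 CPM in ESC).

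Genes that ZEB and SNAI factors are known to repress also mostly rose. Of 18, 17 passed the filter, of which 13 were higher (12 by at least 2-fold) and 2 lower (median log2 fold change 2.03). Among all genes tested, 32.0% were called higher and 32.6% lower, and 17.0% were called higher by at least 2-fold. This list shares 3 genes with the preceding one. Mal2, of apical transport, averaged 35.5 ± 1.16 CPM in EpiLC and 0.55 ± 0.25 CPM in ESC (log2 fold change 5.86), and the polarity gene Patj 132 ± 5.77 CPM in EpiLC and 10.2 ± 1.34 CPM in ESC (3.71). Cldn1 had 118 reads in EpiLC against 1 in ESC (ratio 190.2, 95% interval 33.5 to 7574), and the fitted log2 fold change was 7.03. Leaving out ESC replicate 1 gave 8.57, and leaving out ESC replicate 2 gave 6.40. Llgl2 and Jup, likewise singled out once their values were known, were the 2 that fell, Llgl2 (124 CPM in EpiLC and 177 CPM in ESC) and Jup (102 CPM in EpiLC and 137 CPM in ESC). Pkp3 (13.0 CPM in EpiLC and 12.9 CPM in ESC) and Tjp3 (31.2 CPM in EpiLC and 34.1 CPM in ESC) were not called.

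Of 14 mesenchymal genes, 11 passed the filter, of which 5 were higher and 4 lower (median log2 fold change 0.45). All genes tested also divided between the directions, with 32.0% higher and 32.6% lower. Vim, of the 4 lower, and Cdh11, of the 5 higher, overlapped between the states and are named after their values were seen. Vim lost its call without any 1 of EpiLC replicates 1 to 3 or of ESC replicates 1 and 2 (edgeR adjusted p = 0.0585 to 0.0686). Cdh11 lost its call in the same cases (edgeR adjusted p = 0.0547 to 0.132) and with DESeq2 (adjusted p = 0.107). The fibronectin gene Fn1 averaged 160 ± 18.4 CPM in EpiLC and 921 ± 106 CPM in ESC (log2 fold change -2.53), and the matrix gene Tgfbi 1.84 ± 0.86 CPM in EpiLC and 12.4 ± 7.09 CPM in ESC (-2.83). The collagen gene Col1a2 had 3.83 ± 0.62 CPM in EpiLC and 0.14 ± 0.044 CPM in ESC (4.76), and the protease gene Mmp2 49.0 ± 1.96 CPM in EpiLC and 10.5 ± 0.75 CPM in ESC (2.21). Cdh2, or N-cadherin (6.23 CPM in EpiLC and 4.60 CPM in ESC), was not called (adjusted p = 0.0576), but was without EpiLC replicate 1 (adjusted p = 0.0252) and without ESC replicate 3 (adjusted p = 0.0291). Itga5 (43.4 CPM in EpiLC and 46.2 CPM in ESC) was not called. Col1a1, Col1a2 and Col3a1 of this list are also among the fibroblast markers summed above. That sum therefore is not separate from them, and most of it in EpiLC was Tagln.

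Of 14 corepressor genes, through which the repressors act, all passed the filter, and 3 were higher and 6 lower (median log2 fold change -0.09). The 9 called of 14 are close to the 64.6% called among all genes tested. Ajuba, a LIM protein that joins Snail to its corepressors, averaged 510 ± 9.71 CPM in EpiLC and 169 ± 13.1 CPM in ESC (log2 fold change 1.59). Its relative Limd1 rose by 1.38 on the log2 scale, while Rcor2 fell by 0.98. Ctbp1, the partner of ZEB1, had 131 CPM in EpiLC and 105 CPM in ESC and was not called (adjusted p = 0.0511). It was called without ESC replicate 1 (adjusted p = 0.0253), without ESC replicate 3 (adjusted p = 0.00947) and with 5 other settings (adjusted p = 0.0163 to 0.0480). Kdm1a (354 CPM in EpiLC and 382 CPM in ESC), Rcor1 (51.1 CPM in EpiLC and 48.9 CPM in ESC) and Ezh2 (123 CPM in EpiLC and 129.9 CPM in ESC) were not called. Sirt1 (99.9 CPM in EpiLC and 105 CPM in ESC) was called without ESC replicate 3 alone (adjusted p = 0.0277).

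Of 12 genes for the turnover of SNAI proteins, 4 were higher and 3 lower (median log2 fold change 0.09), near the 32.0% higher and 32.6% lower of all genes tested. The phosphatase gene Ctdsp1 (29.2 ± 0.21 CPM in EpiLC and 11.6 ± 2.31 CPM in ESC) and the deubiquitinase gene Usp27x (16.0 ± 1.04 CPM in EpiLC and 7.31 ± 0.68 CPM in ESC), whose products stabilise Snail, rose by 1.31 and 1.14 on the log2 scale. The ubiquitin ligase genes Btrc and Fbxl5 fell by 0.76 and 0.69. The count of 4 higher was 2 without EpiLC replicate 3, where Fbxw11 (adjusted p = 0.0548) and Pak1 (adjusted p = 0.0702) were lost. Gsk3b, the kinase that marks Snail for degradation and a target of the 2i medium at the protein level, had 98.8 CPM in EpiLC and 78.3 CPM in ESC and was called without ESC replicate 3 alone among the libraries left out (adjusted p = 1.72e-06). Gsk3a, Fbxl14 and Fbxo11 were not called, and Fbxo45 was called without ESC replicate 3 alone (adjusted p = 0.0343).

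The TGF-beta pathway, a classical inducer of Zeb and Snai genes, had 9 of 10 listed genes above the filter, of which 5 rose and 4 did not pass the test, with a median log2 fold change of 0.36. Of all genes tested, 64.6% were called and 32.0% were higher. Tgfb2 averaged 3.97 ± 0.41 CPM in EpiLC and 0.62 ± 0.011 CPM in ESC (log2 fold change 2.65), and the receptor gene Tgfbr2 3.07 ± 0.62 CPM in EpiLC and 0.97 ± 0.69 CPM in ESC (1.81). The receptor gene Tgfbr1 rose by 0.59 and the effector gene Smad3 by 0.78 on the log2 scale. Tgfb1 (2.92 CPM in EpiLC and 2.64 CPM in ESC), Tgfbr3 and Smad7 were not called, and Smad2 was called lower without ESC replicate 3 alone (log2 fold change -0.14, adjusted p = 0.0473). The microRNA loci that target ZEB and SNAI transcripts could not be tested. Of 10, 6 held no read in any library, Mir200a had 7 reads in EpiLC and 6 in ESC, and counts of a host transcript at these loci do not measure the mature microRNA.

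**Figure D4:**
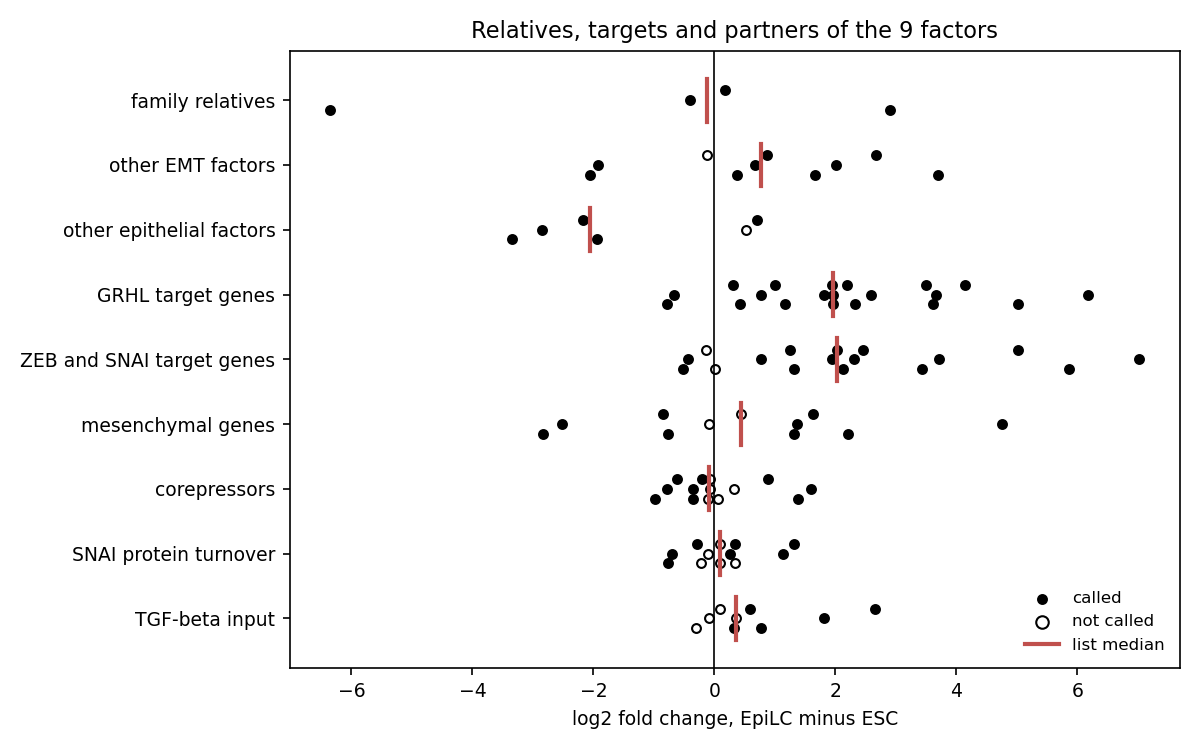
Log2 fold change, EpiLC minus ESC, of the tested genes of each list of relatives, targets and partners, with filled points for called genes, open points for genes not called and a red line for the list's median. The targets of grainyhead-like factors and of ZEB and SNAI factors have medians of 1.96 and 2.03, the other epithelial factors a median of -2.06, and the corepressors and SNAI turnover genes medians of -0.09 and 0.09.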

How the data were processed

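The authors deposited raw read counts per Ensembl gene, 1 column per library. Tools listed in the submitters' processing notes, with no version, were cutadapt, STAR, featureCounts and DESeq2, and the build was mm10. Per the labels' protocols, RNA was depleted of ribosomal RNA and about 100 ng entered a stranded kit. Annotation release, strand setting and treatment of multi-mapping reads: not given in the sources used here. The table's 92 spike-in rows held 0 counts and were left out. Of 51826 identifiers, 51633 matched GENCODE M21 (GRCm38, the assembly of mm10).

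Counts were tested with edgeR 4.0.16 (R 4.3.3, quasi-likelihood, legacy option off, TMM, filterByExpr defaults of 10 counts and 15 in total, group as the single term, two-sided). SE came from the quasi-likelihood F. Genes below the filter were fitted with no filter. The fit was tested on simulated data. The members, the 10 gene lists, the 10 marker lists and the naming rule (up to 4 called genes per list with the largest change and at least 1 CPM in the higher group, plus uncalled ones) were chosen with earlier results of these data known. Lists got no test. Alternatives used limma 3.58.1 and DESeq2 1.42.0. Some genes that the naming rule picks are not reported here.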

Additional observations from a re-analysis of the deposited data

How the results depend on the processing

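Across 13 alternatives (RLE, upper quartile or no scaling factors, no filter on low counts, DESeq2, limma-voom, a replicate block, and each library left out), the 9 genes kept their direction and their side of the threshold in all 114 values. The count of called genes was 8514 to 11731 with 1 library left out, against 9685, and 9161 with DESeq2. Correlations of deviations showed no pairing of the samples by library number (-0.0853, -0.00587 and -0.149 for the same numbers). Deviations from a mean of 3 libraries sum to 0 within each gene, so these values cannot show that the cultures were unpaired. With the replicate block 9234 genes were called (9119 of them called without the block), Ubp1, Cdh11 and Sin3a lost their calls and Gsk3b gained one (adjusted p = 0.0451). No other gene of the 10 lists changed its call. Of 260 counts per list, 13 moved by over 1.5 times, and those caused by a library are given with the lists. Without the filter, Ubp1 (adjusted p = 0.399) was not called, leaving 1 higher relative, Fbxw11 and Pak1 were not called, leaving 2 higher turnover genes, Cldn4 (adjusted p = 0.193) was not called and Tgfbr3 was called lower. Cdh2 was called with upper quartile scaling (adjusted p = 0.0410) or library totals (0.0358), and Ctbp1 with 5 settings other than a library left out. Of 20 levels per length, 10 moved by over 1 SD with the longest transcript. Depth limits Ovol1, Snai1 and Snai2, which had 29, 16 and 11 reads in EpiLC and 8, 39 and 29 reads in ESC.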
